A study of Mus musculus with 35 samples.

Results

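The 10 genes described here encode proteins that build or steer the cytoskeleton of young neurons: the 5 collapsin response mediator proteins (CRMPs; Dpysl2, Dpysl3, Dpysl4, Dpysl5 and Crmp1), the microtubule regulators Dcx and Stmn2, the growth cone protein Gap43 and the beta-tubulins Tubb2b and Tubb3. They were listed by name as genes known from immature neurons, and earlier results of these data were known when they were chosen. They are 10 of the 55401 genes in the count table, and all 10 passed the filter on low counts. The libraries were made from CD45+ cells, which the study isolated as microglia, so the question asked of these neuronal transcripts was how much of them each age held.

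RNA was sequenced from CD45+ cells taken by immunopanning from the whole brain of wild-type C57Bl/6 mice, and the labels name no agent or allele beyond age and sex. In immunopanning, a suspension of dissociated brain is passed over dishes coated with an antibody, here against CD45, and unbound cells are washed off. Each library came from 1 mouse, at postnatal day 6 (P6), postnatal day 15 (P15) or 8 weeks. The groups held 34 mice, with 4 females and 6 males at P6 and with 6 of each sex at both later ages. The study removed an outlier that its methods do not name. A further P6 female (female 6), the deposited mouse missing from the values behind its mRNA scaling plot, was therefore left out of the groups and is described by itself. Between 23316107 and 38965078 fragments per library were assigned to genes. Levels are CPM, the fragments on a gene relative to all fragments of its library, scaled by the trimmed mean of M-values, and 3 counts, taken as the floor, corresponded to between 0.0770 and 0.129 unscaled CPM. This floor covers counting error alone, since copies made by PCR were not told apart from molecules. All 10 genes had at least 19 counts in each of the 34 mice.

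CRMPs are cytosolic proteins that carry semaphorin signals from the membrane to the cytoskeleton of the growth cone, the motile tip of a growing axon. Dpysl2 (CRMP2) binds tubulin dimers and promotes their addition to microtubules, and kinases such as GSK3 and CDK5 release it from tubulin. Doublecortin (Dcx) stiffens microtubules in migrating neuroblasts, stathmin-2 (Stmn2) sequesters tubulin in growth cones, and Gap43 lines the inner face of the growth cone membrane. Tubb3 is the beta-tubulin used as a histological label of neurons, and Tubb2b is a beta-tubulin abundant in the developing brain. Microglia are not the usual source of most of these transcripts in the brain, whereas Dpysl2 is also found outside neurons and Dpysl3 has been described in amoeboid microglia soon after birth.

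The label of the cells was checked against marker genes. All 10 microglial markers were detected, and their summed level ranged from 10966 to 20005 CPM at P6, from 21596 to 46057 CPM at P15 and from 29778 to 44307 CPM at 8 weeks. Markers of other brain cells were present too, and none of them was at 0 in all mice of an age. The 12 markers of mature neurons summed to between 172 and 430 CPM at P6, between 216 and 949 CPM at P15 and between 149 and 532 CPM at 8 weeks. The 14 markers of neural progenitors and immature neurons, which hold none of the 10 genes, summed to between 640 and 2115 CPM, between 405 and 894 CPM and between 320 and 445 CPM at these ages. Most of the later sums came from Sox4, a transcription factor whose mean level was 425 ± 91.5 CPM in P6 mice, 333 ± 24.3 CPM in P15 mice and 322 ± 35.9 CPM in the oldest mice (SD). The mean log2 CPM of the 14 markers, in which each counts equally, went from 5.53 through 3.54 to 1.23. In bulk libraries, fewer cells of a type and less RNA per cell cannot be told apart.

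Promoters from 250 bases before to 50 bases after the gene start were available from RefSeq (build GRCm38.p6) for 4 of the 9 genes that fell with age. They are shown because these genes moved together (for Dcx and Crmp1, the first of 2 listed starts), and each is written 5′ to 3′ along its own gene. Capitals mark matches, on either strand, to the letters GGGCGG of a GC box. They also mark those of a CCAAT box, which are the letters in its name. A match of a TATA box is the run TATAAA in capitals.
Dcx (chrX:143933170-143933469, minus strand): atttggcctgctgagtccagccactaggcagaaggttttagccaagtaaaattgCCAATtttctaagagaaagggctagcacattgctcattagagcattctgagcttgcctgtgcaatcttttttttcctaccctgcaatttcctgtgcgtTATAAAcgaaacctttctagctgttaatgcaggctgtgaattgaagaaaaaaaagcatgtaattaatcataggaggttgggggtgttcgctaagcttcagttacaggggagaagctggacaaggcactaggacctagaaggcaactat
Dpysl5 (chr5:30711314-30711613, plus strand): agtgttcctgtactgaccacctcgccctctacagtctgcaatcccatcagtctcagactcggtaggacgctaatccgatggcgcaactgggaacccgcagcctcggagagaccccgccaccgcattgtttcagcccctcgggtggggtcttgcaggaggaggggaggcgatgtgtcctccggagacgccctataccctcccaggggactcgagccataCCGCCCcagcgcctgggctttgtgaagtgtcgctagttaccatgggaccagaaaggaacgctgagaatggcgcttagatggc
Crmp1 (chr5:37241808-37242107, plus strand): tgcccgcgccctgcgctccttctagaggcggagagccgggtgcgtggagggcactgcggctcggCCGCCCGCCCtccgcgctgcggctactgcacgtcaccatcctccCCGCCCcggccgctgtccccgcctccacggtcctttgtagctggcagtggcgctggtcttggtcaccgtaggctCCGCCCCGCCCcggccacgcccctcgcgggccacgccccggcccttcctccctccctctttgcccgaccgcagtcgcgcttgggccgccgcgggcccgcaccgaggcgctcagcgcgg
Tubb3 (chr8:123411303-123411602, plus strand): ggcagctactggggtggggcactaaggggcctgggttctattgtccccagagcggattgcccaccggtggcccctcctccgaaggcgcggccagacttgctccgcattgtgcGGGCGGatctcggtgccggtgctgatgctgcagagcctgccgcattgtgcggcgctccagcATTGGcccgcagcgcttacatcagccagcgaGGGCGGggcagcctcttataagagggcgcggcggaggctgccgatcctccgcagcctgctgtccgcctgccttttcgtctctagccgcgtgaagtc

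Boxes are counted here as letter matches at any place in the window, and whether a match works as a box was not tested. The promoter of Dcx held 1 match of the TATA box and 1 of the CCAAT box and had a GC content of 43.0%. The promoter of Crmp1 held 5 GC boxes, some of which overlap each other, at a GC content of 77.0%. Tubb3 held 2 GC boxes and 1 CCAAT box, and Dpysl5 held 1 GC box. No motif was therefore shared by all of them. Of 32851 mouse promoters of the same length, 13.6% held the TATA box, 37.4% the CCAAT box and 35.7% the GC box, so each match is a common one. The E-box sequences CAGCTG and CAGATG, held by 16.3% and 17.2% of promoters, were not found in these windows.

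Of the 5 CRMP genes, 4 fell steeply from P6 to 8 weeks and Dpysl2 stayed level. Dpysl2 (ENSMUSG00000022048) is on chromosome 14, minus strand, from 66802864 to 66868688 (build GRCm38/mm10, as for all positions of the 10 genes). Its lowest, median and highest levels were 177, 234 and 275 CPM at P6 (n = 10), 215, 239 and 293 CPM at P15 (n = 12), and 211, 241 and 306 CPM at 8 weeks (n = 12). The ranges of the ages lay over each other, and the level varied little between mice, with an SD of 12.1%, 10.3% and 9.81% of the mean. From P6 to 8 weeks the log2 fold change (log2FC) was 0.08 with a 95% interval from −0.06 to 0.22 (edgeR quasi-likelihood test, Benjamini-Hochberg adjusted over 17612 genes, FDR = 0.284).

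Dpysl3 (ENSMUSG00000024501, chromosome 18 from 43320984 to 43438286, minus strand), which encodes a CRMP that also binds actin, fell at both steps. Its lowest, median and highest levels were 201, 417 and 550 CPM at P6, 13.5, 61.6 and 122 CPM at P15 and 4.32, 5.49 and 13.3 CPM at 8 weeks. It was the only member whose 3 age groups did not overlap (0.937% of all genes fell at each step with no overlap), although the lowest P15 mouse (male 6) and the highest 8-week mouse (female 1) nearly met. From P6 to 8 weeks it fell by 5.86 on the log2 scale (SE 0.351, FDR = 8.64e-16), which left 1.72% of the P6 level.

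Dpysl5 (ENSMUSG00000029168, chromosome 5 from 30711564 to 30799375, plus strand), also called CRMP5, showed 80.1, 173 and 271 CPM as lowest, median and highest level at P6. At P15 these were 5.19, 28.5 and 93.3 CPM, and at 8 weeks 1.65, 2.80 and 6.75 CPM. All P15 mice but 1 lay below every P6 mouse, and the exception was P15 male 1. The fall from P6 to 8 weeks was −5.75 on the log2 scale (SE 0.377, FDR = 9.01e-15).

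Crmp1 (ENSMUSG00000029121, chromosome 5 from 37241940 to 37292133, plus strand), a CRMP that acts downstream of semaphorin 3A, ranged from 100.5 to 344 CPM at P6 with a median of 244 CPM. It ranged from 12.5 to 158 CPM at P15 (median 47.4 CPM) and from 3.66 to 14.8 CPM at 8 weeks (median 5.90 CPM). Again P15 male 1 was the single P15 mouse inside the P6 range. The log2FC from P6 to 8 weeks was −4.93 (SE 0.367, FDR = 2e-13).

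Dpysl4 (ENSMUSG00000025478, chromosome 7 from 139086001 to 139102704, plus strand), the CRMP with the lowest level per length at P6, was at 17.9, 48.0 and 54.9 CPM (lowest, median, highest) at P6, at 3.42, 13 and 38.9 CPM at P15 and at 1.42, 2.32 and 6.78 CPM at 8 weeks. P6 and 8 weeks did not overlap, whereas 3 of the 12 P15 mice reached into the P6 range. Its log2FC from P6 to 8 weeks was −3.76 (SE 0.334, FDR = 1.29e-11).

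**Figure D1:**
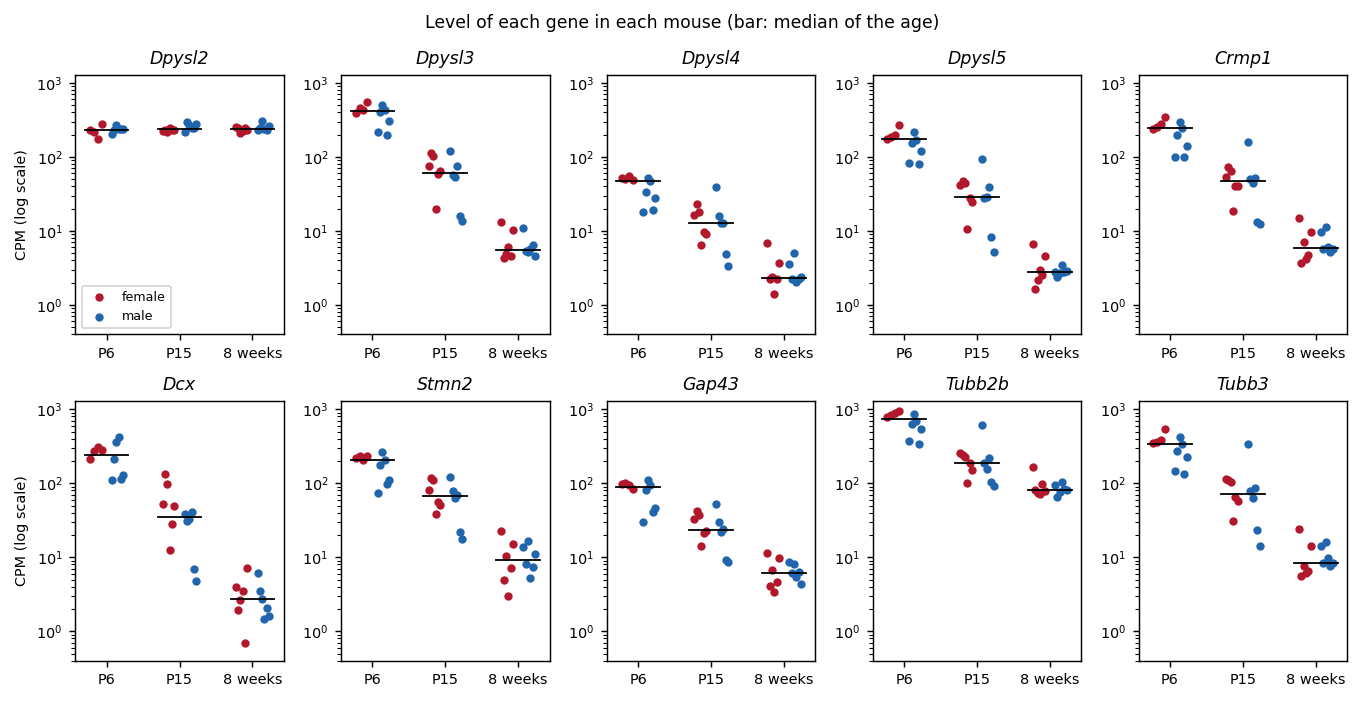
Level of each of the 10 genes in each of 34 mice, in scaled CPM on a log axis, by age and sex (red: female, blue: male), with a bar at the median of each age. Dpysl2 stays between 177 and 306 CPM at every age, and in the other 9 panels all 12 mice at 8 weeks lie below all 10 mice at P6, as they do for 14.8% of all genes tested.

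Both microtubule regulators fell. Dcx (ENSMUSG00000031285, chromosome X from 143855842 to 143933311, minus strand) was at 109, 243 and 419 CPM (lowest, median, highest) at P6, at 4.78, 35.5 and 136 CPM at P15 and at 0.692, 2.697 and 7.23 CPM at 8 weeks. The lowest library at 8 weeks, female 5, still held 19 counts. All 12 mice at 8 weeks lay below every P6 mouse, and 2 of them lay inside the P15 range. The fall of Dcx, −6.29 on the log2 scale (SE 0.458, FDR = 1.23e-13), left 1.28% of the P6 level and had the largest point estimate of the 10 genes.

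Stmn2 (ENSMUSG00000027500, chromosome 3 from 8509360 to 8561606, plus strand) was at 74.5, 207 and 266 CPM at P6, at 17.9, 66.5 and 121 CPM at P15 and at 2.97, 9.29 and 22.3 CPM at 8 weeks. The P6 and P15 ranges overlapped, with 7 of 12 P15 mice below every P6 mouse, and between P15 and 8 weeks only 8-week female 1 reached into the P15 range. Stmn2 fell by 4.15 on the log2 scale from P6 to 8 weeks (SE 0.341, FDR = 2.17e-12).

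Gap43 (ENSMUSG00000047261, chromosome 16 from 42248442 to 42340651, minus strand), the growth cone membrane protein, was at 30.02, 88.8 and 110.2 CPM at P6, at 8.65, 23.5 and 52.7 CPM at P15 and at 3.36, 6.17 and 11.3 CPM at 8 weeks. As for Stmn2, 7 of 12 P15 mice lay below every P6 mouse, while 3 of 12 mice at 8 weeks lay inside the P15 range. Its log2FC from P6 to 8 weeks was −3.59 (SE 0.288, FDR = 1.19e-12).

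The beta-tubulins had the highest levels per length of the 10 genes at P6 and fell by different amounts. Tubb2b (ENSMUSG00000045136, chromosome 13 from 34126748 to 34130466, minus strand) was at 340, 745 and 937 CPM at P6, at 92.1, 186 and 610 CPM at P15 and at 65.3, 80.6 and 167 CPM at 8 weeks. P6 and 8 weeks did not overlap, and the log2FC of −2.97 (SE 0.249, FDR = 3.3e-12) left 12.7% of the P6 level, more than for any other member that fell. Tubb2b is nearly identical in sequence to Tubb2a, and the counting options in the study's methods include none that counts reads mapping to several places. By default featureCounts leaves such reads out, so the level of Tubb2b may rest on the reads that tell it from Tubb2a and is uncertain to that extent. Tubb2a, named only for this likeness, had a log2FC of −1.56.

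Tubb3 (ENSMUSG00000062380, chromosome 8 from 123411424 to 123422015, plus strand) was at 134, 341 and 545 CPM at P6, at 14.4, 71.6 and 337 CPM at P15 and at 5.64, 8.36 and 24.2 CPM at 8 weeks. The P15 maximum came from male 1, the only P15 mouse within the P6 range. From P6 to 8 weeks Tubb3 fell by 4.92 on the log2 scale (SE 0.409, FDR = 2.98e-12).

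Over the whole interval from P6 to 8 weeks, 9 of the 10 genes were lower (12.4% of all genes tested were lower past 2-fold, and 36.6% at FDR below 0.05 with no fold threshold), and each of the 9 passed the 2-fold threshold (glmTreat). None was higher, by edgeR, limma-voom or DESeq2 and also at an unadjusted p below 0.05, against 37.8% of all genes higher at FDR below 0.05. The median log2FC of the 10 genes was −4.53, beside 0.04 over all 17612 genes tested. Leaving out any P6 female, P15 male 1 or 8-week female 1 left the count at 9.

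The fall was spread over both intervals. From P6 to P15, 9 of 10 genes were lower at FDR below 0.05 (31.4% of all genes) and 7 were lower past 2-fold (4.85% of all genes). The change ranged from −2.64 for Dpysl3 to −1.43 for Stmn2 among the 9. Dpysl4 (−1.53, 2-fold test FDR = 0.114) and Stmn2 (2-fold test FDR = 0.202) did not pass the 2-fold threshold. The calls for Gap43 (−1.59, 2-fold test FDR = 0.0452) and Tubb3 (−1.86, 2-fold test FDR = 0.0301) lay close to it. The Gap43 call was lost without P6 female 1, 2 or 3 (FDR = 0.0654, 0.0584 and 0.0538) and that for Tubb3 without P6 female 5 (FDR = 0.0546), and without P15 male 1 the 2-fold test called Dpysl4 (FDR = 0.00663). By limma-voom, the method of the study, the Gap43 call was lost too (2-fold test FDR = 0.0595). By DESeq2 5 genes passed the threshold, without Gap43 (2-fold test FDR = 0.323) and Tubb3 (2-fold test FDR = 0.254).

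From P15 to 8 weeks, 9 of 10 genes were again lower (23.9% of all genes), 8 of them past 2-fold (3.07% of all genes). Dcx fell by 3.67 and Dpysl5 by 3.41 on the log2 scale, to 7.84% and 9.39% of their P15 levels. Tubb2b, at −1.24, was the member that was lower without passing the 2-fold threshold (2-fold test FDR = 0.627). By limma-voom 6 rather than 8 genes passed it, without Dpysl4 (2-fold test FDR = 0.103) and Gap43 (2-fold test FDR = 0.125).

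**Figure D2:**
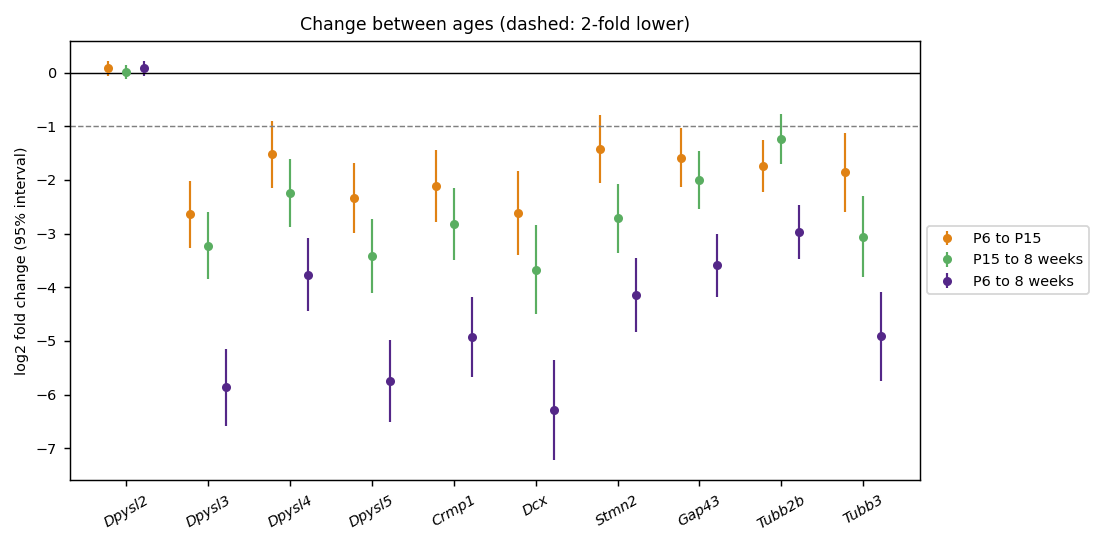
Log2 fold change of each gene from P6 to P15 (orange), from P15 to 8 weeks (green) and from P6 to 8 weeks (purple), with 95% intervals from the edgeR fit; the dashed line marks a 2-fold fall. The purple points run from −6.29 for Dcx to −2.97 for Tubb2b, with Dpysl2 at 0.08.

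Whether the later interval held the larger change was tested as the difference between the log2FC of the intervals. No member passed an FDR of 0.05 in edgeR (17.6% of all genes had a later change that was lower and 15.8% one that was higher), although Stmn2 came near it at −1.29 (95% interval −2.33 to −0.24, unadjusted p = 0.0173, FDR = 0.0513), the 1 member with an unadjusted p below 0.05. DESeq2 called 1 member and limma-voom none. For 8 of the other 9 genes the point estimate was also below 0, and for Tubb2b it was 0.50 (95% interval −0.31 to 1.32). Several of these values turned on single mice, whereas that for Dcx stayed between −1.085 and −0.905 with single mice left out. Without P15 male 1 the difference was −0.03 for Crmp1 (−0.70 with it), −0.05 for Gap43 (−0.42), −0.15 for Dpysl4 (−0.71), −0.20 for Dpysl3 (−0.59), −0.28 for Tubb3 (−1.20) and −0.46 for Dpysl5 (−1.07). With single mice left out, the difference for Stmn2 ran from −1.47 (without 8-week female 1, FDR = 0.01935) to −0.99. Without P15 male 1 the difference for Tubb2b was 1.08 (FDR = 0.00796).

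Levels of different genes were compared per kilobase of exon. At P6 the order was Tubb2b (300 ± 92.5 CPM per kb, SD, n = 10), Tubb3 (170 ± 68.0), Dpysl3 (59.1 ± 17.6), Dpysl2 (51.4 ± 6.23), Gap43 (51.2 ± 18.6), Stmn2 (32.4 ± 11.6), Crmp1 (31.2 ± 11.8), Dpysl5 (22.5 ± 8.03), Dcx (19.2 ± 8.38) and Dpysl4 (6.75 ± 2.41). Neighbours from Dpysl3 to Gap43 and from Stmn2 to Dcx in this order differed by less than the larger SD of the pair. At 8 weeks Dpysl2 stood first at 54.1 ± 5.31 CPM per kb (n = 12), followed by Tubb2b at 39.04 ± 11.7. Tubb3 (5.74 ± 2.93) and Gap43 (4.32 ± 1.62) came next, and differed by less than the SD of Tubb3. Dcx was last, at 0.247 ± 0.152.

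The makeup of the CRMP family changed with age. Dpysl2 made up 31.6 ± 8.18% of the CRMP level per kb at P6, 71.1 ± 14.1% at P15 and 94.8 ± 1.94% at 8 weeks, with ranges of 21.9 to 47.2%, 44.2 to 92.4% and 90.2 to 96.8%. P6 and 8 weeks did not overlap, while P15 reached into both. At P6 Dpysl3 had the highest mean share, 34.1 ± 3.10%, which differed from that of Dpysl2 by less than the SD of the latter. It fell to 1.81 ± 0.75% at 8 weeks. The summed CRMP level went from 171 ± 41.9 CPM per kb at P6 to 78.1 ± 12.9 at P15 and 57.1 ± 5.74 at 8 weeks.

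**Figure D3:**
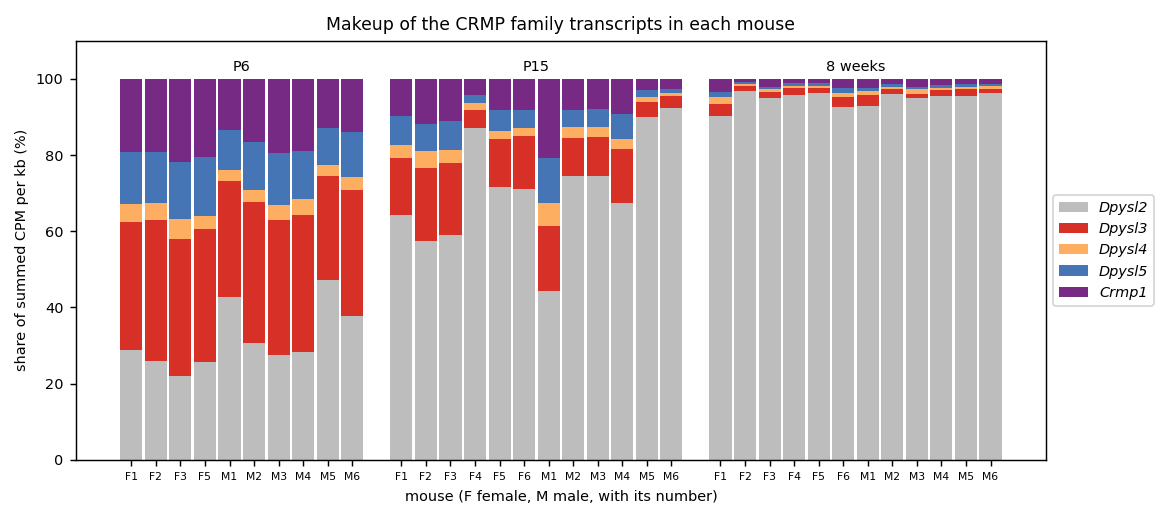
Share of each CRMP gene in the summed CRMP level per kb of exon (%), 1 bar per mouse, ordered by age, sex and number. The grey share of Dpysl2 runs from 21.9 to 47.2% at P6 and from 90.2 to 96.8% at 8 weeks, and P15 male 1 has the lowest grey share of its age (44.2%).

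Ratios of 2 genes within a library do not depend on how libraries are scaled, and 7 were compared between P6 and 8 weeks by a two-sided permutation test with 100000 permutations. All 7 differed. The log2 ratio to Dpysl2 changed by −5.94 for Dpysl3, by −5.77 for Dpysl5, by −4.98 for Crmp1 and by −3.81 for Dpysl4 (for each, p = 1e-05, the smallest the permutations can give, and adjusted p = 1.17e-05 over 7 ratios). In each of these 4 ratios, all 12 mice at 8 weeks lay below all 10 P6 mice, and the ratios share Dpysl2 as denominator. Since Dpysl2 changed little (log2FC 0.08), these 4 changes restate the falls of the single genes, without the library scaling, and are no separate result.

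The genes that fell did not fall by the same amount. The log2 ratio of Tubb2b to Tubb3 was 1.16 ± 0.17 at P6, 1.47 ± 0.50 at P15 and 3.15 ± 0.52 at 8 weeks (8 weeks minus P6, 1.99, permutation p = 1e-05, adjusted p = 1.17e-05). The ratio of Gap43 to Dcx rose from −1.61 ± 0.29 at P6 through −0.39 ± 0.78 to 1.21 ± 0.72 (2.82, permutation p = 1e-05, adjusted p = 1.17e-05). For both ratios, the 12 mice at 8 weeks and the 10 P6 mice did not overlap. The ratio of Stmn2 to Dcx went from −0.39 ± 0.28 through 0.96 ± 0.70 to 1.76 ± 0.94 (2.14, permutation p = 3e-05, adjusted p = 3e-05), with 11 of 12 mice above all P6 mice.

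**Figure D4:**
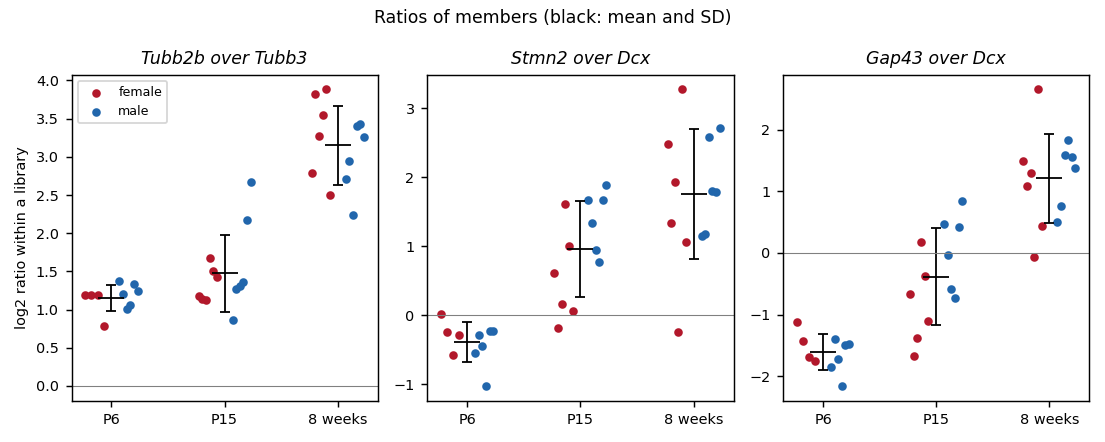
Log2 ratio of Tubb2b to Tubb3, of Stmn2 to Dcx and of Gap43 to Dcx within each library, by age and sex (red: female, blue: male), with the mean and SD of each age in black. The means at P6 and 8 weeks are 1.16 and 3.15, −0.39 and 1.76, and −1.61 and 1.21.

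No member differed between sexes past 2-fold at P6, P15 or 8 weeks by edgeR, limma-voom or DESeq2 (0.0454% of all genes were called at each age). At P6, 9 of the 10 genes had lower point estimates in males, from −0.68 to −0.26 among them, with wide intervals (Tubb3, −1.76 to 0.40). P6 males 1, 5 and 6 were the 3 lowest P6 mice in each of the 9 genes that fell with age. At P15 the lowest, median and highest levels of Dcx were 12.6, 50.5 and 136 CPM in females and 4.78, 32.0 and 40.7 CPM in males. These ranges overlapped, and the difference of −1.28 was the only one of the 30 with an unadjusted p below 0.05 (edgeR FDR = 0.253). No member had an interaction of sex with the change from P6 to 8 weeks, also at an unadjusted p below 0.05 and by limma-voom and DESeq2 (0.00% of all genes).

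Mice that were high or low in one member were mostly so in the others. Among P15 mice, male 6 was the lowest in each of the 9 genes that fell, and male 1 the highest in 8 of them. Male 5 and female 4 were among the 3 lowest P15 mice in all 9. At 8 weeks female 1 was the highest in 8 of the 9. The summed microglial markers were 46057 CPM in P15 male 6 and 24666 CPM in P15 male 1, and 29778 CPM, the lowest of its age, in 8-week female 1. The part of cell makeup in these differences between mice was not tested.

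The levels were next set beside the mean log2 CPM of the 12 mature neuron markers, within each age, since the ages form separate groups. The 30 relations were tested by permutation over mice and adjusted together. At P15 (n = 12) the 9 genes that fell were all related to it, with r from 0.75 for Tubb2b (rho 0.78, permutation p = 0.00525, adjusted p = 0.0075) to 0.96 for Stmn2 (rho 0.90, permutation p = 1e-05, adjusted p = 7.5e-05). Without the 2 mice farthest from the median marker level, males 5 and 6, r was between 0.60 and 0.87 in these genes, and for Tubb2b it no longer passed 0.05 (permutation p = 0.0677). After adjustment 7 of the 9 still passed, without Tubb2b and Tubb3. The share of all genes related to the markers was not counted at P15 or in the oldest mice. The number of related genes therefore does not show whether the relation is particular to them or shared by many genes, which was not tested.

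At 8 weeks the members divided. Stmn2 (r = 0.97, rho 0.98, adjusted permutation p = 7.5e-05), Crmp1 (r = 0.90, rho 0.83, adjusted permutation p = 0.00033), Dpysl4 (r = 0.90, rho 0.93, adjusted permutation p = 7.5e-05), Gap43 (r = 0.88, rho 0.80, adjusted permutation p = 0.00109) and Tubb3 (r = 0.86, rho 0.82, adjusted permutation p = 0.00111) were related to the neuron markers. Without the 2 farthest mice their r was between 0.83 and 0.97. Dpysl3 (r = 0.58, rho 0.34, adjusted permutation p = 0.0604), Dcx (r = 0.52, rho 0.57, adjusted permutation p = 0.1), Dpysl5 (r = 0.48, rho 0.23, adjusted permutation p = 0.131) and Tubb2b (r = 0.28, rho 0.014, adjusted permutation p = 0.406) did not pass the threshold. Without the 2 farthest mice, r was 0.83, 0.76, 0.66 and 0.32 in these 4, so for the first 3 the result rested on those mice, female 4 and male 3 (unadjusted permutation p = 0.00427, 0.0115 and 0.0347 without them, of which Dpysl3 and Dcx passed after adjustment). Whether the genes differ from each other in this relation was not tested.

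At P6 (n = 10) the same 9 genes had r between 0.73 (Dcx) and 0.92 (Dpysl3), all with an adjusted permutation p below 0.05. The share of all genes related to the markers was not counted at this age either. The relation rested on P6 males 1 and 5, the mice with the lowest neuron marker level. Without them r was between 0.22 and 0.71, and passed 0.05 for Dpysl3 alone (r = 0.71, unadjusted permutation p = 0.0363), and for none of the 9 after adjustment. Dpysl2 was not called related to the neuron markers at any age (r = 0.45 at P6, −0.44 at P15 and 0.48 at 8 weeks, with adjusted permutation p of 0.203, 0.166 and 0.124), but with P6 female 6 added its r at P6 was 0.73 (n = 11, adjusted permutation p = 0.0204).

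**Figure D5:**
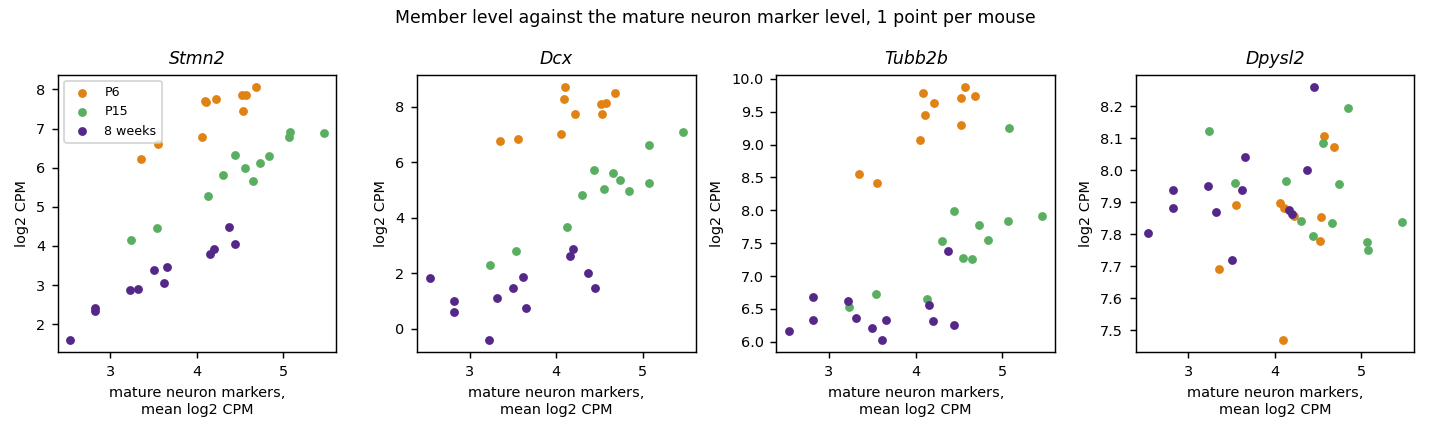
Level of Stmn2, Dcx, Tubb2b and Dpysl2 (log2 CPM) against the mean log2 CPM of 12 mature neuron markers, 1 point per mouse, coloured by age. Within each age the points for Stmn2 rise with the markers (r is 0.88, 0.96 and 0.97 from the youngest to the oldest age), and of the points at 8 weeks those for Tubb2b do so least (r = 0.28). The points for Dpysl2 fall at P15 (r = −0.44).

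Other genes of the same pathways were read from lists chosen with earlier results of these data known, without tests of the lists. Each count stands beside 36.6% lower and 37.8% higher among all genes tested from P6 to 8 weeks, and a median log2FC of 0.04. Of 6 class 3 semaphorin ligands, 4 were lower and none higher at 8 weeks than at P6, with Sema3d at 4.69 ± 1.40 CPM at P6 and 0.800 ± 0.396 CPM at 8 weeks (log2FC −2.56, FDR = 5.17e-08). Of 8 semaphorin receptor genes, 6 were lower and 1 higher. L1cam, an adhesion molecule of axons that joins the neuropilin receptor complex, went from 50.6 ± 17.0 to 7.60 ± 2.19 CPM (−2.76, FDR = 9.67e-11), while Plxna4, a plexin, went from 58.1 ± 12.01 to 120 ± 19.8 CPM (1.08, FDR = 4.25e-10).

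Of 16 kinases and signalling partners of the CRMPs, 5 were lower (31.2%) and 6 higher (37.5%), with a median log2FC of 0.01. These shares lay near those over all genes (36.6% and 37.8%) and are not a result about the list. Fyn, a Src-family kinase, fell from 142 ± 13.5 to 45.8 ± 5.63 CPM (−1.64, FDR = 1.56e-16), and Gsk3b fell by 0.54 on the log2 scale (FDR = 8.11e-06). Numb, an endocytic adaptor that binds CRMP2, rose from 56.6 ± 10.6 to 214 ± 21.0 CPM (1.96, FDR = 9.77e-17).

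Among 13 other tubulins, 10 were lower (76.9%, beside 36.6% of all genes) and 2 higher (median −1.35). Tuba1a, the alpha-tubulin of young neurons, went from 1134 ± 400.4 to 146 ± 32.7 CPM (−2.99, FDR = 7.16e-12), and Tubb5, a broadly expressed beta-tubulin, from 2020 ± 228 to 283 ± 62.4 CPM (−2.85, FDR = 3.96e-20). Tubb1 rose at a low level, from 0.658 ± 0.211 to 1.77 ± 1.13 CPM (1.26, FDR = 3.78e-05). Of 13 other stathmins, doublecortin kinases and microtubule-associated proteins, 9 were lower and 1 higher (median −2.07), with Stmn1 at 535 ± 117 and 31.1 ± 10.1 CPM (−4.13, FDR = 5.6e-19) and Map7 as the riser (1.26, FDR = 2.35e-13). Of 12 other growth cone proteins, 10 were lower and none higher (median −2.50), among them Cd24a (−3.75, FDR = 4.91e-16) and the actin-binding drebrin, Dbn1 (−3.65, FDR = 7.19e-11).

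Cell type markers gave the setting of these falls. All 14 markers of neural progenitors and immature neurons were lower at 8 weeks (median −4.90), where 36.6% of all genes were lower and 37.8% higher. Igfbpl1 went from 197 ± 101 to 1.19 ± 0.838 CPM, and Nhlh1 from 30.4 ± 20.9 CPM to at most 6 counts per library. Markers of mature neurons moved both ways, with 7 of 12 lower and 3 higher (median −0.74), from −2.55 for Slc17a6, a vesicular glutamate transporter, to 1.98 for Camk2a, a synaptic kinase. All 5 markers of oligodendrocyte precursors were lower (median −1.75), whereas all 6 markers of myelinating oligodendrocytes (1.504), 5 of 7 of astrocytes (1.17) and all 10 of microglia (1.42) were higher. The astrocyte marker Gfap, an intermediate filament, was lower (−1.31, FDR = 1e-07). Of 5 endothelial markers 2 were higher, of 9 monocyte and macrophage markers 4 were lower and 2 higher, and all 6 tested markers of neutrophils and lymphocytes were higher. The part of these cell types in the change of the 10 genes was not tested.

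Genes whose log2 CPM followed each member most closely over the 34 mice were listed by Pearson's r, as a description. The mice were pooled over ages, so r does not separate differences between ages from those within an age. Dpysl3 was followed by Trim67 (0.990), Sox11 (0.988) and D430019H16Rik (0.986), and Dpysl5 by Trim67 (0.989), Igfbpl1 (0.987) and Islr2 (0.984). Dcx was followed by Sox11 (0.986), Myt1 (0.981) and Trim67 (0.976). Crmp1 and Tubb3 had the same nearest genes, Samd14 (0.992 and 0.993), Fxyd6 (0.990 and 0.992) and Podxl2 (0.988 and 0.991), and Podxl2 (0.990) was also nearest to Dpysl4, before Fam171a2 and Gprin1 (0.990 for both). Stmn2 was followed by Gng3 (0.989), Nrep (0.986) and Mmp24 (0.984), Gap43 by Sept3 (0.991), Gprin1 (0.990) and Nova2 (0.989), and Tubb2b by Tuba1a (0.988), Sox12 (0.987) and Sbk1 (0.986). For Dpysl2 no gene came close, the nearest being Minpp1 (0.596), Jkamp (0.589) and Osbpl2 (0.581).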

How the data were processed

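Raw counts per gene were used as deposited by the authors, who aligned directional paired-end reads to GRCm38/mm10 with STAR and counted fragments on genes with strand-aware featureCounts, with no filter and no normalisation. The submitters' processing notes also name fastp 0.20.0, with no step given for it. Groups of age and sex follow the labels of each mouse. Genes were named and placed with GENCODE M21, which may not be the annotation the authors used (55141 of 55401 identifiers had a symbol, and all 10 genes matched). No pair of libraries within a group was a copy (85 pairs, lowest mean chi-square per gene 11.8, where 1 is expected from sampling). The labels name no batch, and the replicates are separate mice.

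The 17612 genes that reached 0.5 CPM in 5 or more mice were tested with edgeR 4.0.16 in R 4.3.3, using TMM scaling, robust glmQLFit and 1 mean per age and sex group. Single changes were tested with glmQLFTest and 2-fold calls with glmTreat, both two-sided at a Benjamini-Hochberg FDR of 0.05. Age contrasts averaged the sexes. Log2 CPM used a prior count of 2, and permutation tests used 100000 permutations in Python with numpy 2.4.6. Scripts were tested on simulated data. Alternatives used limma 3.58.1 and DESeq2 1.42.0. Levels per kb used the summed exon length of GENCODE M21.

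The 10 genes, the other lists and the tests were chosen with earlier results of these data known. Of each other list, at most the 2 lowest and 2 highest genes by log2FC from P6 to 8 weeks past FDR 0.05 could be named, and for each member the 3 genes of highest r. Sox4, for its part in a marker sum, and Tubb2a, for its likeness to Tubb2b, fall outside this rule and were chosen after their values were seen. The sequences searched in promoters were picked for this description. The miRNA libraries were not analysed here.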

Additional observations from a re-analysis of the deposited data

Results flagged for a closer look

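Of 60 sets made of 1 gene in 1 age and sex group, 7 held a mouse far from the others by Dixon's test at 95%, a share to be read against the 1 in 20 that chance gives. In P15 male 1, 4 genes were far above the other 5 P15 males. Tubb3 was at 337 CPM beside 14.4 to 85.7 CPM, Tubb2b at 610 CPM beside 92.1 to 220.1 CPM, Crmp1 at 158 CPM beside 12.5 to 52.6 CPM and Dpysl4 at 38.9 CPM beside 3.42 to 15.9 CPM. In that mouse the mature neuron markers summed to 949 CPM, the highest sum of all 34 mice. By the mean log2 CPM of these markers it stood at 5.07, below P15 female 2 at 5.47. The part of the marker level in the 4 values was not tested. Tubb2b was at 167 CPM in 8-week female 1, beside 71.9 to 98.7 CPM in the other 8-week females. Dpysl3 was at 11.03 CPM in 8-week male 1, beside 4.65 to 6.42 CPM in the other males of that age. Dpysl2 was at 249.9 CPM in P15 female 4, beside 219 to 229 CPM in the other P15 females, the single such value of this gene.

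P6 female 6, which entered no comparison, exceeded each of the other 10 P6 mice in 9 of the 10 genes when all 35 libraries were scaled together. It held 898 CPM of Dpysl3 (199 to 563 CPM in the others), 97.6 CPM of Dpysl4 (18.0 to 54.8 CPM), 363 CPM of Dpysl5 (79.2 to 278 CPM) and 491 CPM of Crmp1 (99.4 to 352 CPM). Stmn2 was at 480.2 CPM (74.9 to 268 CPM) and Gap43 at 224 CPM (30.2 to 111 CPM), the genes furthest above the mean of the others, at 2.62 and 2.84 times it. Tubb2b was at 1229 CPM (337 to 959 CPM), Tubb3 at 600.3 CPM (133 to 558 CPM) and Dpysl2 at 325 CPM (177 to 282 CPM). Dcx, at 372 CPM, lay within the range of the others (109.6 to 424 CPM). In the same library the microglial markers summed to 5035 CPM (11103 to 19789 CPM in the others) and those of monocytes and border macrophages to 428 CPM (728 to 1560 CPM), both below all other P6 mice. The mature neuron markers summed to 1038 CPM (173 to 432 CPM), and glial markers were above all others too, at 2412 CPM for astrocytes (495 to 1297 CPM), 1182 CPM for oligodendrocyte precursors (155 to 655 CPM) and 1462 CPM for myelinating oligodendrocytes (236 to 565 CPM). The markers of progenitors and immature neurons, at 1635 CPM, lay within the range of the others (634 to 2141 CPM). The part of cell makeup in these values was not tested.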

How the results depend on the processing

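The count of 9 genes lower from P6 to 8 weeks, with and without the 2-fold threshold, was the same under all 16 alternatives tried, and so was the count of 9 lower genes in each of the shorter intervals. Past 2-fold the count ranged from 5 to 8 (7 reported) from P6 to P15 and from 6 to 8 (8 reported) from P15 to 8 weeks. Gap43 lost its P6 to P15 call under 9 alternatives and Tubb3 under 4, and limma-voom lost Dpysl4 and Gap43 from P15 to 8 weeks. The cause was not tested. The count of genes with unequal changes in the intervals was 0 as reported and 1 under DESeq2's size factors, under DESeq2 and with age without sex (Stmn2 each time), and it ranged from 0 to 1 when single mice were left out. All 7 ratios differed under each of the 7 alternatives run for them. The count of genes related to neuron markers was 9 at P6 (7 to 10 when P6 female 6 was added or single P6 females left out, and with rho or library size scaling), and 9 at P15 and 5 at 8 weeks (9, and 5 to 7, with rho or library size scaling). Without the 2 mice farthest from the median marker level, added after seeing the data, it was 0 at P6, 7 at P15 and 7 at 8 weeks. The share of all genes that would be called related was not counted under any setting. Counts of genes higher, different between sexes or with an interaction of sex and age were 0 throughout.

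Signs reversed for Dpysl2 alone, whose changes were near 0 and never called. Scaling by library size, which moved the median log2FC of all genes from 0.04 to −0.103, gave −0.05211 from P6 to P15, −0.01052 from P15 to 8 weeks, −0.06263 from P6 to 8 weeks and 0.04159 for the difference between intervals. From P15 to 8 weeks it was also −0.006217 under DESeq2's size factors, −0.00623 under DESeq2, −0.007469 with no filter on low counts and −0.007673 with at least 10 counts in every mouse. With single mice left out it ranged from −0.04389 to 0.003128, and from P6 to 8 weeks from −0.01321 to 0.09321.

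With the replicate number as a block, 9 genes were lower from P6 to 8 weeks, and 8 rather than 7 were called past 2-fold from P6 to P15 (Dpysl4, FDR = 0.0388). Over all genes the block called 4155 in place of 4200 from P6 to 8 weeks. The numbers do not pair the mice, since same-numbered mice correlated at a median r of 0.03 over 80 pairs and 2 of 34 mice correlated best with their own number. Leaving out P15 male 1 or 8-week female 1 was chosen after seeing the data. Each gene had at least 19 counts in every mouse, and the effect of depth on the calls was not tested.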
